A study of Mus musculus with 3264 samples.

Results

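The genes described here are 10 immune signalling genes of the mouse, chosen by name: the chemokines Ccl3, Ccl4, Ccl5 and Xcl1, the cytokine Tnf, and the chemokine receptors Ccr2, Cx3cr1, Ccr7, Cxcr3 and Cxcr6. They were chosen with earlier results of these data known. All 10 were rows of both deposited expression tables, which share 24781 genes. Chemokines are small secreted proteins that guide migrating leukocytes through receptors coupled to G proteins. Ccl3, Ccl4 and Ccl5 are inflammatory chemokines released by activated myeloid, T and NK cells, and Tnf is the founding cytokine of its family, which signals through Tnfrsf1a and Tnfrsf1b. Which receptors a cell carries decides which ligands it follows: Ccr7 takes naive lymphocytes to lymph nodes, Ccr2 takes monocytes out of the marrow, and Cxcr3 and Cxcr6 mark lymphocytes that enter tissues.

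RNA was counted well by well, 1 mouse cell being intended for each, from an oligo-dT primer that carried a molecular barcode. Wells came from a mixture of 3 cell lines, hematopoietic progenitor cells (HPC), T cells and leukemia cells, for which the labels give the strain as NA, and from the mononuclear cells of peripheral blood (PBMC), taken from the strain C57BL/6J. Cells of the lines were picked by ALPS, an automated imaging and picking method, after time-lapse imaging (16 plates with 54 to 82 wells in the table), at random (330 wells on 4 plates) or as targets of known line (4 plates with 71 to 87 wells), or were sorted by fluorescence-activated cell sorting (FACS; 2 plates with 87 and 92 wells). PBMC were picked by ALPS after time-lapse imaging, and 8 plates had 30 to 59 wells each with at least 300 detected genes. No label names a treatment, an animal or a separate culture, so every group counts as 1 sample. There is therefore no test and no p-value, plates are technical units, and intervals cover counting error only.

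Total counts per well had medians of 42537 in time-lapse, 38194 in random, 35223 in target, 26843 in FACS and 2147 in PBMC wells, within a range of 1013.98 to 140363 over all wells. In target wells, Cd34, a surface protein of progenitors, stood at 516.99 counts per 1e6 counts (CPM) in HPC, 0.627 CPM in T and 0.235 CPM in leukemia wells. The T cell surface gene Thy1 had 16.3, 600 and 0.587 CPM in the same order, while Cd3e, a chain of the T cell receptor complex, had 10.1, 193.8 and 237.4 CPM, so it was counted in the T and the leukemia line. Kit, another progenitor receptor, reached only 4.38 CPM in HPC wells. Some wells went against their labels. The expression profile nearest to each well, built without the 10 genes, matched the label in 99.1% of target wells (exact binomial 95% interval 97.3 to 99.8) but in only 60 FACS wells (33.5%; 26.7 to 40.9). The labels did not separate the lines among FACS wells: those labelled HPC had 13 HPC, 16 T and 16 leukemia profiles, those labelled T had 20, 24 and 24, and those labelled leukemia had 19, 24 and 23. Why they differ was not tested. All 3 target wells that did not match were labelled HPC, of which 2 had a leukemia and 1 a T profile. Target wells are therefore grouped by label, with the values without those 3 wells given beside the results they touch, and time-lapse, random and FACS wells are grouped by profile. Target plates held 17 to 21 HPC, 24 to 33 T and 30 to 34 leukemia wells, time-lapse plates 10 to 24, 6 to 30 and 14 to 39, random plates 21 to 32, 17 to 44 and 22 to 28, and FACS plates 24 to 28, 32 and 31 to 32 wells of the 3 lines in that order.

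Ccl3 and Ccl4 lie 13228 bases apart on chromosome 11 (mm10, GENCODE vM21), at chr11:83647844-83649355 on the minus strand and chr11:83662584-83664683 on the plus strand. Ccl5 (chr11:83525778-83530518) and Ccr7 (chr11:99144196-99155077) are on the same chromosome. Cx3cr1 (chr9:119901616-120069879), Cxcr6 (chr9:123806475-123811760) and Ccr2 (chr9:124101950-124113557) are on chromosome 9, with 290189 bases between Cxcr6 and Ccr2. Xcl1 is at chr1:164931644-164935527, Tnf at chr17:35199381-35202007 and Cxcr3 at chrX:101731535-101734269. All 10 are annotated as protein-coding. Exons of Xcl1 and Cx3cr1 share 98 and 78 bases with the genes Gm20743 and Gm33858 on the other strand, and Cxcr6 lies within Fyco1 without sharing exon bases. Whether the counting used strand is not given in the sources used here, so reads in those shared bases cannot be assigned to a strand.

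Of the 10 genes, 7 have a promoter in the RefSeq table (build GRCm38.p6), and the 250 bases before the transcript start that RefSeq gives are shown for Ccl3 and Cxcr6, which differed between the lines and were picked after their values were seen. For Ccr2 and Cx3cr1 that start lies within the GENCODE locus given above, so their windows lie largely inside that locus and not before it, and are not shown. The window of Cxcr3, chrX:101734148-101734397 on the minus strand, also reaches into its locus, which ends at 101734269. These windows are kept in the motif counts below. Capitals mark the Runx core TGTGGT and the ETS core GGAAGT on either strand, motifs bound by transcription factor families of blood cells. The windows are chr11:83649379-83649628 on the minus strand for Ccl3 and chr9:123806227-123806476 on the plus strand for Cxcr6.
Ccl3: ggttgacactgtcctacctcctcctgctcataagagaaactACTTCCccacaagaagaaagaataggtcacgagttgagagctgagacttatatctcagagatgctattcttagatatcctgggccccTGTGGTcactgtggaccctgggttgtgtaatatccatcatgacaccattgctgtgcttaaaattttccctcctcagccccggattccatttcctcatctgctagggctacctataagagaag
Cxcr6: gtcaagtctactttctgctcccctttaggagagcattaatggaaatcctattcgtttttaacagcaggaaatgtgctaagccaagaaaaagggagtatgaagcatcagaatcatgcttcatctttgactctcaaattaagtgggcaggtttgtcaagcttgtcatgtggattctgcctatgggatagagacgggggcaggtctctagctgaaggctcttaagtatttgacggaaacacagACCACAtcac

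The Runx core began 10 bases before the RefSeq start of Cxcr6, and was also present in the windows of Ccl3, Xcl1, Cx3cr1 and Cxcr3. That is 5 of the 7 windows, and 14% of the 32851 promoters of the table hold it. The ETS core was found in 4 of the 7, in Ccl3, Xcl1, Tnf and Cxcr3, against 19.7% of all promoters. The letters TATAAA occurred in 1 of the 7 windows, that of Tnf, against 12.4% of all promoters. Neither an NF-kappaB type motif, GGGA and TTCC with any pair of bases between them (1.21% of all promoters), nor the AP-1 type TGANTCA (6.75%) was present in any of the 7 windows. These matches describe letters in the windows and nothing about binding.

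The 3 lines carried different sets of these genes. HPC wells held Ccl3, Ccl4, Tnf and Ccr2, leukemia wells held Cx3cr1 and Cxcr6 with a little Ccr2, and T wells held Cxcr6 and Tnf. A gene entered a comparison of lines if it reached 10 CPM in 1 of the groups, and it met the size rule if the difference of mean log2(CPM + 1) over plates was at least 1, a 2-fold difference, with the same direction on all 4 target plates. Between HPC and leukemia wells 6 of the 10 genes entered, of which 3 were higher (Ccl3, Tnf, Ccr2), 2 lower (Cx3cr1, Cxcr6) and 1 met the rule in neither direction (Ccl4). Of all 8276 genes that entered, 25.8% met the rule, 13.1% higher and 12.7% lower. Between HPC and T wells, Ccl3 and Ccr2 were higher and Cxcr6 lower, and Ccl4, Ccl5 and Tnf met it in neither direction, 3 of 6, against 28.5% of 8452 genes, 13.2% higher and 15.3% lower. Between T and leukemia wells Ccr2, Cx3cr1 and Cxcr6 were lower and Ccl5 met it in neither direction, 3 of 4, against 27% of 8263 genes, 14.8% higher and 12.2% lower. Without the 3 HPC-labelled wells of another profile, the same genes met the rule in all 3 comparisons. The 10 were chosen with earlier results of these data known, so their shares beside those of all genes are no independent comparison.

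Ccl3, a ligand of Ccr1 that is also known to restrain progenitor division, had 407.2, 421.6, 517.5 and 528.4 CPM on the 4 plates of HPC wells, 0.430, 10.9, 0 and 0 CPM in T wells, and 3.38, 0, 0 and 0 CPM in leukemia wells. The lowest HPC plate stood far above every plate of the other lines, and the groups did not overlap. The difference in log2(CPM + 1) was 8.33 for HPC minus leukemia and 7.84 for HPC minus T, and summed over plates the HPC level was 497.6 times that of leukemia wells (95% interval 193.8 to 1829) and 159.8 times that of T wells (94.8 to 293.1). Ccl3 was counted in 67 of 73 HPC wells (91.8%; 82.96 to 96.9), 2 of 120 T wells (1.67%; 0.202 to 5.89) and 3 leukemia wells (2.38%; 0.494 to 6.80), at median depths of 34189, 37148 and 31868 counts. Of the 13.5 counts in T wells, 13 came from 1 well. A CPM over summed wells mixes how many wells hold a transcript with how much each holds, so shares of wells stand beside the levels.

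Ccl4, the closely related neighbour of Ccl3, had 86.4, 30.97, 0 and 40.01 CPM in HPC wells, 0, 0.841, 0 and 0 CPM in T wells, and 0 on all 4 plates of leukemia wells. Plate 3 of the HPC wells had no count of Ccl4 in 17 wells, although its Ccl3 was 517.5 CPM. Because of that plate the direction rule was not met, and without it the difference in log2(CPM + 1) was 5.60 against leukemia and 5.31 against T wells, with the rule met in both. The summed HPC level was at least 56.2 times that of leukemia wells, taking 3 counts as the limit for the 0 counts of the whole group. Ccl4 was counted in 18 of 73 HPC wells (24.7%; 15.3 to 36.1), 1 of 120 T wells and no leukemia well, which allows a share of up to 2.38%. All 18 HPC wells with Ccl4 also held Ccl3, which was in 67 of all 73 HPC wells.

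Tnf had 5.08, 11.3, 16.4 and 10.6 CPM in HPC wells, 6.87, 6.73, 3.24 and 4.64 CPM in T wells, and 0 on every plate of leukemia wells. HPC and T plates overlapped, and both groups stood above leukemia. In log2(CPM + 1) the difference was 3.47 for HPC minus leukemia and 0.84 for HPC minus T. The difference between HPC and T wells missed the size rule, and without plate 1 it was 1.25 and met it. Summed levels in HPC were at least 15.3 times and in T wells at least 7.71 times those of leukemia wells, and HPC stood at 1.98 times T wells (1.11 to 3.53). Tnf was counted in 15 of 73 HPC wells (20.5%), 22 of 120 T wells (18.3%) and no leukemia well. These levels rest on 27 counts in HPC wells and 26 in T wells, and Tnf no longer met the rule against leukemia without plate 3, or without the well of highest count in each group, at a difference of 3.25 in both cases. Leaving out the well of highest count was chosen after the data had been seen.

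Ccl5 and Xcl1 were not steady transcripts of any line. Ccl5, a ligand of Ccr1 and Ccr3, had 0, 1.41, 0 and 0 CPM in HPC wells, 0, 15.1, 3.24 and 37.8 CPM in T wells, and 0 on all plates of leukemia wells. All 78 counts of T wells lay in 4 of 120 wells, and 57 of them in 1 well of plate 4. Without plate 1, where no line had a count, Ccl5 met the rule, at -3.37 for HPC minus T and 3.79 for T minus leukemia. Xcl1, which attracts cross-presenting dendritic cells through Xcr1, had 1 count in HPC wells and none in T or leukemia wells.

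Ccr2, the receptor of Ccl2, had 286.2, 424.05, 419.3 and 256.7 CPM in HPC wells, 0, 0.841, 0 and 0 CPM in T wells, and 34.7, 12.6, 6.07 and 4.74 CPM in leukemia wells. No plate of one line overlapped with a plate of another. The difference in log2(CPM + 1) was 4.84 for HPC minus leukemia, 8.19 for HPC minus T and -3.35 for T minus leukemia, and the last rests on 1 count in T wells. Summed over plates, HPC wells stood at 22.7 times leukemia wells (17.6 to 29.7). Ccr2 was counted in 62 of 73 HPC wells (84.9%; 74.6 to 92.2), 1 of 120 T wells (0.833%) and 20 leukemia wells (15.9%; 9.97 to 23.4). In HPC wells, 60 held both Ccr2 and Ccl3, which is 96.8% of the 62 wells with Ccr2 and 89.6% of the 67 with Ccl3. Without target plate 1, where leukemia wells had 41 of their 65 counts, Ccr2 fell below 10 CPM and did not enter T minus leukemia. The difference was then -2.74.

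Cx3cr1 was higher in leukemia wells than in either other line. This receptor of the membrane-bound chemokine Cx3cl1 had 0, 0, 0 and 12.1 CPM in HPC wells, 0, 0.841, 1.08 and 0 CPM in T wells, and 78.6, 70.6, 71.8 and 67.8 CPM in leukemia wells. The leukemia plates lay within a narrow range far above the rest, and the only HPC plate with counts was plate 4. In log2(CPM + 1) the difference was -5.26 for HPC minus leukemia and -5.71 for T minus leukemia. Cx3cr1 was counted in 4 of 73 HPC wells (5.48%), 2 of 120 T wells (1.67%) and 81 leukemia wells (64.3%; 55.3 to 72.6). Without the 3 wells whose profile went against the HPC label, HPC wells kept 2 of their 8 counts of Cx3cr1.

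Cxcr6, the receptor of Cxcl16, had 1.69, 0, 0 and 10.6 CPM in HPC wells, 12.03, 12.6, 25.9 and 23.2 CPM in T wells, and 36.3, 35.8, 34.4 and 40.8 CPM in leukemia wells. The 3 lines did not overlap and were ordered HPC, T, leukemia from low to high. The difference in log2(CPM + 1) was -4.00 for HPC minus leukemia, -2.96 for HPC minus T and -1.03 for T minus leukemia, the last just past the size rule. Leukemia wells stood at 2.005 times T wells (1.53 to 2.63), and without plate 1 or plate 2 the T minus leukemia difference was -0.87 or -0.90, short of the rule. Cxcr6 was counted in 4 of 73 HPC wells (5.48%), 51 of 120 T wells (42.5%; 33.5 to 51.9) and 83 leukemia wells (65.9%; 56.9 to 74.1). Without the 3 HPC-labelled wells with another profile, 1 of the 8 counts of Cxcr6 in HPC wells was left. In leukemia wells, 55 held both Cxcr6 and Cx3cr1, of 83 with Cxcr6 and 81 with Cx3cr1.

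The remaining receptors were near the floor in the lines. Ccr7, the receptor of Ccl19 and Ccl21, had 3 counts in HPC, 0 in T and 13 in leukemia wells, and Cxcr3, the receptor of Cxcl9 and Cxcl10, had 4, 11 and 0 counts. Neither reached 10 CPM in any line of the target wells.

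**Figure D1:**
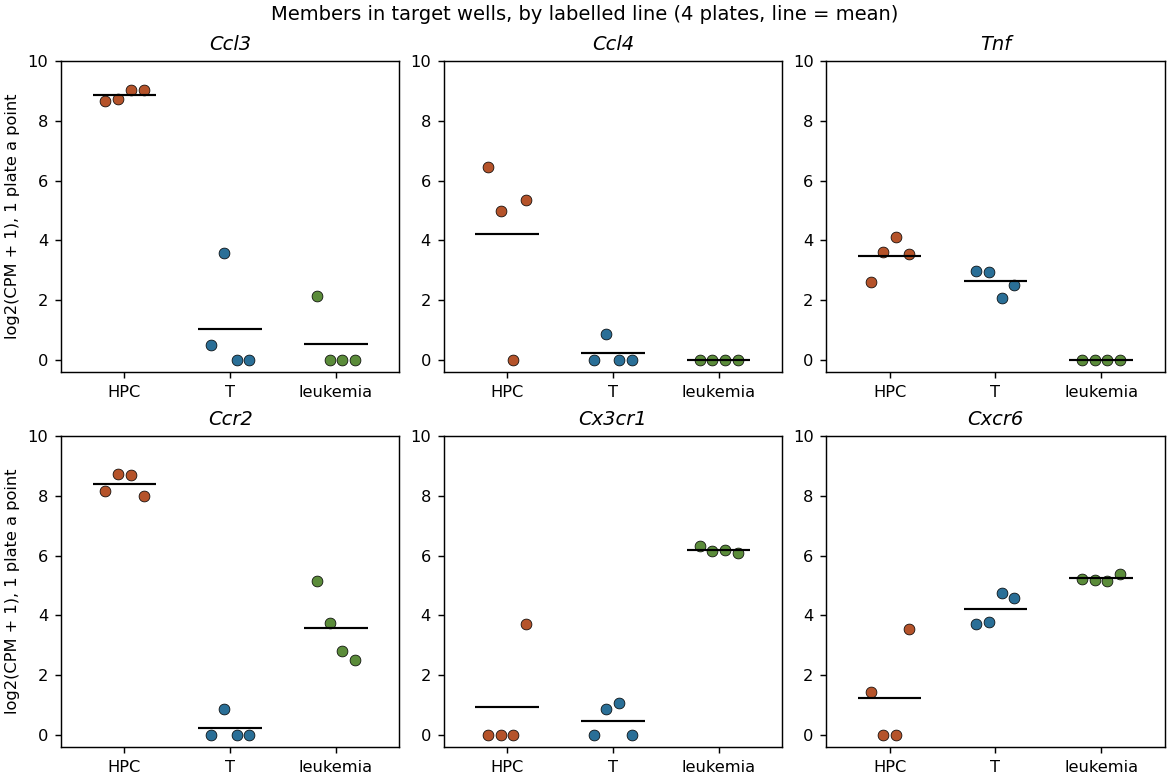
CPM of 6 of the genes in target wells on a log2(CPM + 1) scale, with 1 point per plate, the wells grouped by labelled line and a horizontal line at the mean of the 4 plates. Ccl3 and Ccr2 were high in HPC wells, Cx3cr1 and Cxcr6 in leukemia wells, and Ccl4 was at 0 on 1 HPC plate.

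Few other genes of these families reached 10 CPM in the lines. Of 31 other chemokines, 2 entered HPC minus leukemia and 1 was higher: Ccl9, a Ccr1 ligand of myeloid cells, which averaged 23.6 CPM in HPC wells and 0 in T and in leukemia wells, a difference of 4.61 in log2(CPM + 1) from either. Of 18 other chemokine receptors, none of the 2 that entered met the rule between HPC and leukemia, while Ccr4, a receptor of Ccl17 and Ccl22, averaged 1.98 CPM in HPC, 43.1 in T and 0.211 in leukemia wells. Ccr8 was likewise higher in T wells than in leukemia wells, by 1.17 in log2(CPM + 1). Among 21 TNF ligands, receptors and regulators, 11 entered HPC minus leukemia, of which 3 were higher and 2 lower, with a median difference of 0.10 against -0.12 over all genes. Lta, a relative of Tnf encoded beside it, averaged 31.3 CPM in HPC, 8.72 in T and 0.253 in leukemia wells, and Ltb 17.7, 4.58 and 3.80 CPM. Tnfrsf1a, the main receptor of soluble Tnf, averaged 28.6 CPM in HPC, 40.5 in T and 0.242 in leukemia wells. The genes lower in HPC than in leukemia wells were Cd40lg at 0.755 against 13.6 CPM and the adaptor Traf2 at 12.4 against 27.2 CPM.

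Some genes followed the same pattern over the 12 sums of target wells (3 lines on 4 plates) as a description, with line and plate shared by all genes. The highest Pearson correlations of log2(CPM + 1) among 4057 genes were 0.987 each for Ccl3 with the apoptosis gene Pmaip1, the stress-response transcription factor gene Atf3 and the phosphatase gene Ptpn6. For Ccr2 they were 0.992 with Cbfa2t3 and 0.990 with Lyl1, both transcription regulators of blood progenitors, and 0.986 with Ripor2. Cx3cr1 was most like Wnt6 (0.992), Arhgef17 (0.992) and the transcription factor gene Ikzf2 (0.991), and Cxcr6 most like Ptprc, which encodes CD45 (0.978), Fam92a (0.965) and Abcb9 (0.964). For Tnf the 3 genes were Hist1h1a (0.979), Cnn3 (0.974) and Rps6ka1 (0.974). Ccl4 reached at most 0.910, with Lcp1, and Ccl5 at most 0.912, with Pgam5.

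Whether imaging before picking went with other levels was addressed by time-lapse minus random wells of the same line. In HPC wells Ccl4 and Ccr2 were lower after time-lapse imaging, and Ccl3, Tnf and Ccl5 met the size rule in neither direction. Here the rule asked for a 2-fold difference of means with at least 85% of time-lapse plates above, or at least 85% below, all 4 random plates. Of the 10 genes 5 entered and 2 were lower, while of 8350 genes 4.37% were higher and 8.25% lower, 12.6% in all. No plate held wells of both modes, so the mode and the plates cannot be told apart.

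Ccl4 had 1.28, 7.71 and 70.2 CPM on the lowest, median and highest of the 16 time-lapse plates of HPC wells, against 154.6, 111.1, 186.8 and 151.5 CPM on the 4 random plates. All 16 time-lapse plates lay below every random plate. So did all 4 target plates of HPC wells, the highest at 86.4 CPM, with Ccl4 in 24.7% of the target wells. A level below random wells was thus not particular to time-lapse wells. The difference in log2(CPM + 1) was -3.82, and summed random wells stood at 8.67 times summed time-lapse wells (7.23 to 10.4). Ccl4 was counted in 54 time-lapse wells (20.5%; 15.8 to 25.9) and 43 random wells (38.7%; 29.6 to 48.5), at median depths of 33857 and 29584 counts. When wells were thinned to 20000 counts, which left out 39 time-lapse and 13 random wells that were shallower, the shares were 15.2% and 29.6%. A random well of plate 4 held 79 of the 92 Ccl4 counts of its plate. Without the well with the most counts in each group, which was also chosen after the data were seen, the difference was -3.23 and the plates no longer stood apart enough for the rule.

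Ccr2 was lower after time-lapse imaging with more counts behind it. Its lowest, median and highest plates had 24.1, 85.97 and 394.5 CPM in time-lapse HPC wells, against 336.9, 453.2, 476.2 and 426.6 CPM on the random plates. Of the 16 time-lapse plates, 15 lay below every random plate. The difference was -2.19 in log2(CPM + 1), and random wells stood at 3.65 times time-lapse wells (3.37 to 3.95). Ccr2 was counted in 55.1% of time-lapse wells (48.9 to 61.2) and 94 random wells (84.7%; 76.6 to 90.8). At 20000 counts per well the shares were 52.2% and 86.7%. In target HPC wells the share was 84.9% before thinning. By level, the target plates at 256.7 and 286.2 CPM and the lower FACS plate also lay below every random plate. The other target and FACS plates did not.

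Ccl3 was in nearly every HPC well of both modes, with a count in 95.8% of time-lapse wells (92.6 to 97.9) and 100% of random wells (96.7 to 100). Its plates ran from 150.1 through a median of 598.7 to 1074.7 CPM after time-lapse imaging, against 1220.3, 683.6, 730.1 and 679.5 CPM at random. Of the time-lapse plates 10 lay below every random plate, and the difference of -0.57 in log2(CPM + 1) missed the rule. Tnf was counted in 65 time-lapse wells (24.7%) and 45 random wells (40.5%). It had 3.09, 8.67 and 36.1 CPM on the lowest, median and highest time-lapse plates, against 20.8, 16.4, 30.6 and 23.1 CPM on the random plates. Of its time-lapse plates 13 lay below every random plate and 1 above, and the difference of -1.24 missed the rule on plates. Tnf met it without random plate 2, at -1.37, and without the wells of highest count, at -1.20. Cx3cr1, near the floor in HPC wells of both modes, was counted in 38 time-lapse wells (14.4%) and 8 random wells (7.21%), with 7.59% and 4.08% after thinning.

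**Figure D2:**
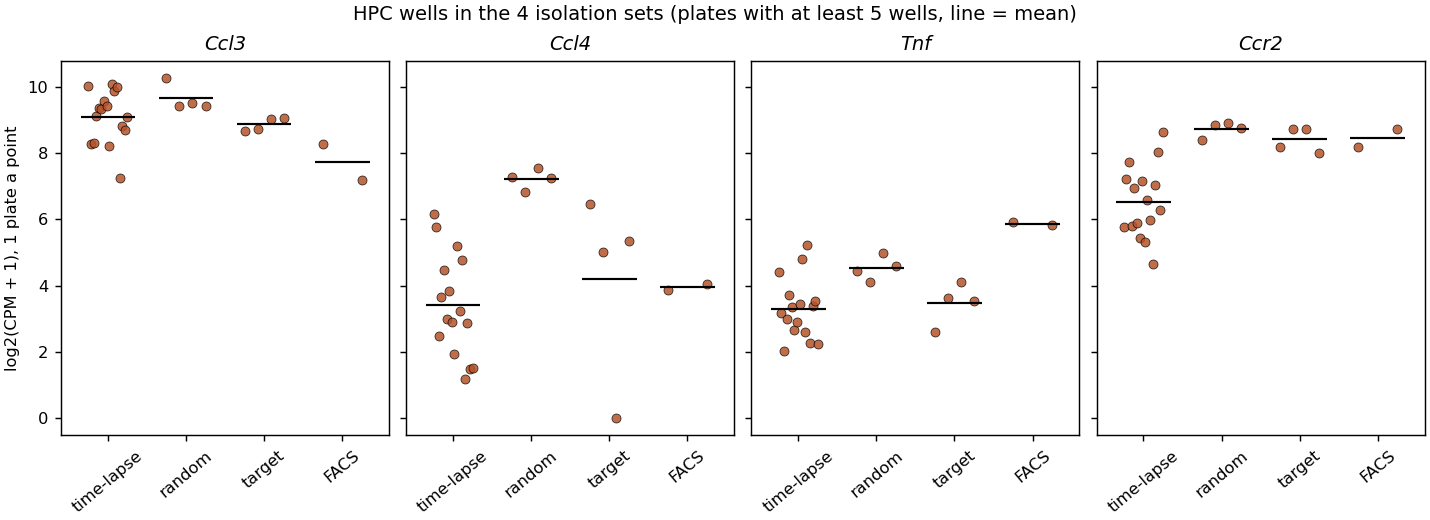
CPM of Ccl3, Ccl4, Tnf and Ccr2 in HPC wells on a log2(CPM + 1) scale for time-lapse, random, target and FACS wells, with 1 point per plate with at least 5 HPC wells and a line at the mean. Ccl4 and Ccr2 were lower on time-lapse than on random plates, and Tnf was highest on the 2 FACS plates. The target plates of Ccl4 also lay below the random plates, as did some target plates and the lower FACS plate of Ccr2.

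Ccl3 and Ccl4 were read together in single HPC wells. Of the wells with Ccl4, 53 of 54 time-lapse wells, all 43 random, all 18 target and all 9 FACS wells also held Ccl3. Ccl3 was in 95.8% of all time-lapse, 100% of random, 91.8% of target and 80.8% of FACS HPC wells. That overlap was therefore fixed for random wells and largely given for the others. Seen from Ccl3, Ccl4 was present in 21% of time-lapse, 38.7% of random, 26.9% of target and 21.4% of FACS wells with Ccl3. Most HPC wells thus held Ccl3 without a count of Ccl4. Median Ccl3 with Ccl4, against without, was 677.6 against 388.4 CPM in time-lapse and 1127.03 against 589.95 CPM in random wells. It was 802.9 against 301.1 CPM in target and 272.4 against 91.3 CPM in FACS wells. Ranges of single wells overlapped in each set. A time-lapse HPC well of plate 5 held Ccl5 at 3951 CPM with 5 counts of Ccl3, 3 of Ccl4 and 1 of Tnf. In 1 random HPC well of plate 4, Ccl5 made up 3836 CPM, beside 79 counts of Ccl4, 27 of Ccl3 and 6 of Tnf and none of Ccr2, at a total of 34149.9 counts. The time-lapse well carried 88.5% and the random well 100% of the Ccl5 counts of their groups.

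**Figure D3:**
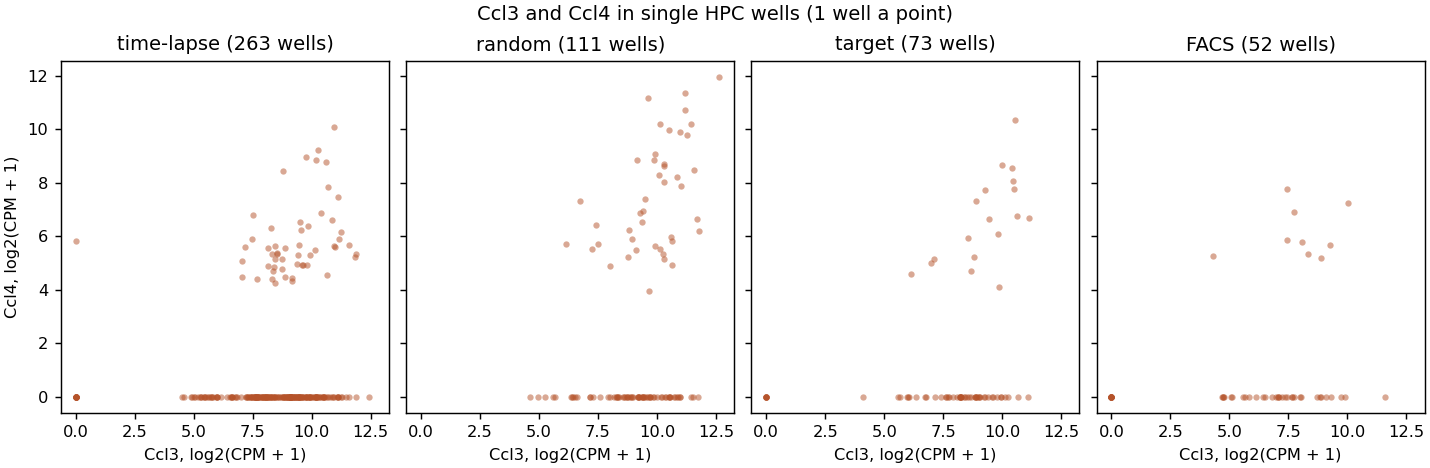
Ccl4 against Ccl3 in single HPC wells, both as log2(CPM + 1), with 1 point per well in time-lapse, random, target and FACS wells. Wells with Ccl4 also held Ccl3 apart from 1 time-lapse well, while many wells with Ccl3 lay at 0 for Ccl4. Most wells of every set held Ccl3, with or without Ccl4.

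In T and leukemia wells no gene of the set met the size rule between time-lapse and random wells. For T wells 1 gene entered, Cxcr6, while of 8182 genes 9.53% were higher and 10.2% lower, 19.7% in all. Cxcr6 had 1.59, 13.1 and 31.6 CPM on the lowest, median and highest time-lapse plates, against 22.6, 23.5, 20.5 and 18.5 CPM at random, a difference of -0.75 with 12 of 16 plates below every random plate. For leukemia wells 3 genes entered and none met the rule, while of 7721 genes 0.894% were higher and 1.01% lower, 1.9% in all. Cx3cr1 had 13.6, 44.5 and 77.1 CPM on the lowest, median and highest time-lapse plates of leukemia wells, against 105.5, 42.4, 76.9 and 76.2 CPM at random. The ranges overlapped at a difference of -0.76, which without random plate 2 was -1.01 and met the rule. Cxcr6 had 9.72, 20.9 and 36.98 CPM after time-lapse imaging, against 32.05, 36.9, 36.3 and 33.998 CPM at random, with 13 of 16 plates below every random plate and a difference of -0.75. Ccr2 ran from 0 through 6.22 to 34.03 CPM after time-lapse imaging, against 10.3, 51.4, 8.39 and 2.72 CPM at random, which overlapped.

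Ccl3 was nearly absent from leukemia wells, yet 7 time-lapse leukemia wells (1.63%) held it at a summed 6.32 CPM, with 45.9% of the counts in 1 well, against 0.272 CPM in 2 of 100 random wells (2%). Tnf was counted in 15 time-lapse wells (3.497%) and in 0 of 100 random leukemia wells, which allows up to 3%. The intervals of both shares overlapped for Ccl3, at 0.658% to 3.33% and 0.243% to 7.04%.

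**Figure D4:**
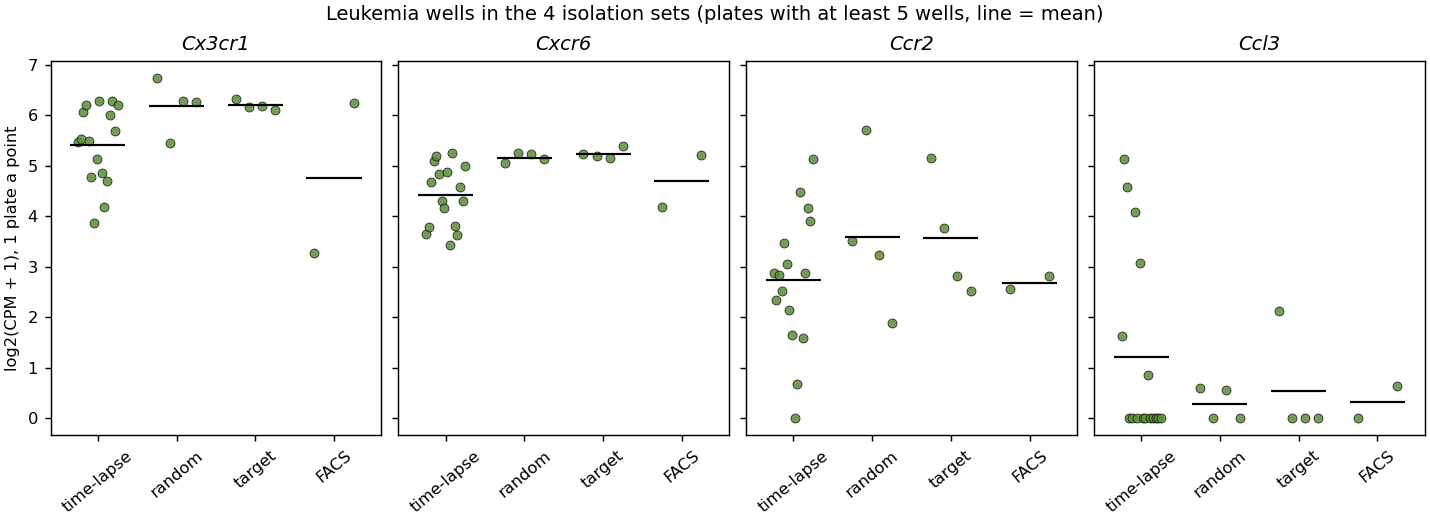
CPM of Cx3cr1, Cxcr6, Ccr2 and Ccl3 in leukemia wells on a log2(CPM + 1) scale for time-lapse, random, target and FACS wells, with 1 point per plate with at least 5 leukemia wells and a line at the mean. Time-lapse plates spread below the random and target plates for Cx3cr1 and Cxcr6 and overlapped with them, and the FACS plates of Cx3cr1 lay at 8.60 and 74.5 CPM.

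Other receptors also differed between time-lapse and random wells. Cxcr4, the receptor of Cxcl12 that holds progenitors in the marrow, was higher in time-lapse wells of all 3 lines, at 76.97 against 28.8 CPM in HPC, 121.1 against 30.2 CPM in T and 34.6 against 13.3 CPM in leukemia wells. Of the 18 other receptors, 5 entered in T wells, and 3 were higher (Ccr9, Cxcr4, Cxcr5) and 2 lower (Ccr4, Ccr8). Cxcr5, the receptor of Cxcl13, averaged 24.9 CPM in time-lapse T wells and had no count in random T wells, and Ccr4 averaged 6.23 against 52.9 CPM. The chemokine Cxcl10 averaged 21.7 against 0.702 CPM in T wells. In HPC wells, 11 TNF list genes entered, of which Tnfsf9 and Ripk1 were higher and Lta and Ltb lower. Lta averaged 8.71 CPM in time-lapse and 41.996 CPM in random HPC wells. Median depth was 58920.5 counts in time-lapse and 44508 in random T wells, and its part in these differences was not tested.

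Target wells were set against FACS wells with both grouped by profile. No plate held wells of both, so the picking method and the plates cannot be told apart. In HPC wells Ccl3 was higher and Tnf lower in target wells, and Ccl4 and Ccr2 met the rule in neither direction, 2 of 4. Of 8029 genes 2.18% were higher and 3.62% lower, 5.8% in all. The rule here was a 2-fold difference of means with the same direction in every pair of plates, and 70 target and 52 FACS wells entered. Tnf averaged 11.5 CPM over the 4 target plates, against 58.8 and 55.9 CPM on the 2 FACS plates. Every FACS plate lay above every target plate, and the difference was -2.32 in log2(CPM + 1). FACS wells stood at 5.02 times target wells (3.19 to 8.12), and 28 of 52 FACS wells held Tnf (53.8%; 39.5 to 67.8). In target HPC wells by label the share was 20.5%, at median depths of 34189 counts in target and 23611 in FACS wells. After thinning to 20000 counts the shares were 12.5% in target and 41.9% in FACS wells. That left out 9 target and 21 FACS wells that were shallower, and the FACS wells left out lay mostly on plate 1.

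Ccl3 averaged 502.1 CPM in target HPC wells, against 308.9 and 144.6 CPM on the FACS plates. The groups did not overlap, the difference was 1.22, and target wells stood at 2.45 times FACS wells (2.14 to 2.82). Without FACS plate 2 the difference was 0.67, short of the rule. Ccr2 averaged 362.8 CPM in target wells, against 287.4 and 422.4 CPM in FACS wells, which overlapped at a ratio of FACS to target of 1.03 (0.917 to 1.15). With random plates in place of target plates, Ccl3 was higher by 1.92 and Ccl4 by 3.27, and Tnf lower at -1.33. In FACS HPC wells 19 held both Ccl3 and Tnf, which is 45.2% of the 42 with Ccl3 and 67.9% of the 28 with Tnf. Of the 10 FACS HPC wells without Ccl3, 9 held Tnf (90%), a larger share than with Ccl3. Median depth was 23611 counts with and 23657 without Ccl3.

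In T wells 2 of the genes entered and none met the rule, while of 7930 genes 1.3% were higher and 0.782% lower, 2.08% in all. In leukemia wells 0 of 4 met it, while of 7671 genes 0.795% were higher and 0.795% lower, 1.59% in all. Cx3cr1 in leukemia wells averaged 72.4 CPM in target wells, against 8.60 and 74.5 CPM on the FACS plates, and Cxcr6 averaged 36.6 CPM, against 17.2 and 36.1 CPM. FACS plate 1 was the low one for both, and without FACS plate 2 Cx3cr1 and Cxcr6 were higher in target wells by the rule. Xcl1 in leukemia wells came from a single FACS well of plate 2 with 32 counts. By the FACS labels, which did not follow the profiles, Ccl3 was counted in 9 of 45 HPC, 16 of 68 T and 18 of 66 leukemia FACS wells, against 42 of 52, 0 of 64 and 1 of 63 by profile.

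In PBMC, Ccr7, Ccl5 and Cxcr6 were counted in more wells than the other genes of the set. Ccr7 was counted in 99 wells (29.2%; 24.4 to 34.4), Ccl5 in 71 (20.9%; 16.7 to 25.7), Cxcr6 in 56 (16.5%; 12.7 to 20.9), Cxcr3 in 29 (8.55%) and Ccr2 in 26 (7.67%). Tnf was in 13 wells, Xcl1 in 7, Ccl3 in 6, Cx3cr1 in 5 and Ccl4 in 3. Ccl5 was present on every plate, in 13.5% to 30% of the wells of a plate. With 2147 counts in the median well, a well without a count does not show that the cell lacked the transcript.

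PBMC wells were grouped into 7 clusters without using the 10 genes or the other listed genes. Clusters 1 (29 wells) and 2 (60 wells) were B cell-like with 8 B cell markers each, cluster 3 (28 wells) was NK cell-like with 10 NK cell markers, and cluster 6 (62 wells) was T cell-like with Cd8b1 and Cd8a leading. Clusters 0, 4 and 5 are called by number. Cluster 0 (65 wells) had 7 T cell and 3 NK cell markers but was led by S100a9 and S100a8, whose counts lay in 1 of its wells. Cluster 5 (77 wells) had 8 T cell markers but was led by the airway gene Scgb1a1, which lay in 3 wells. Cluster 4 (18 wells) had no marker of any type.

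Ccl5 was most frequent in the NK cell-like cluster, in 27 of 28 wells (96.4%; 81.7 to 99.9) at 5803 CPM (5140 to 6528). It followed in cluster 0 with 31 of 65 wells (47.7%; 35.1 to 60.5), and was counted in 6 of 77 wells of cluster 5, 3 of 62 of the T cell-like cluster 6 and 0 of 29 and 1 of 60 B cell-like wells, a type that should lack it, at median depths of 1667 counts in cluster 3, 2856 in cluster 0, and 2155 and 1727 in the B cell-like clusters. Ccr2 was counted in 10 of 28 wells of cluster 3 (35.7%), 15 of 65 of cluster 0 (23.1%) and 0 of 29 and 0 of 60 wells of the B cell-like clusters. Cx3cr1 was in 4 wells of cluster 3 and 1 of cluster 5, and all 5 also held Ccl5. At 1500 counts per well, Ccl5 was in 100% of cluster 3 wells and 35.9% of cluster 0 wells, with 10 and 1 shallower wells left out. At Leiden resolution 0.5 the wells grouped as NK cell-like held Ccl5 in 60.4% and Cx3cr1 in 4.95%, against 96.4% and 14.3% here.

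The receptors Cxcr6 and Cxcr3 were most frequent in cluster 0. Cxcr6 was counted in 50 of its 65 wells (76.9%; 64.8 to 86.5), with 780 CPM, and Cxcr3 in 24 (36.9%; 25.3 to 49.8), with 180 CPM. In the other clusters Cxcr6 was in 0 to 2 wells and Cxcr3 in 0 to 3 wells. Over all PBMC wells, 22 held both genes, which is 39.3% of the 56 wells with Cxcr6 and 75.9% of the 29 with Cxcr3. Cxcr6 and Ccl5 were together in 31 wells, 55.4% of those with Cxcr6 and 43.7% of those with Ccl5. All 7 wells with Xcl1 lay in cluster 0 (10.8% of it), and 6 of them held Cxcr6. The median total was 2856 counts in cluster 0, above that of every other cluster, and at 1500 counts Cxcr6 was in 60.9% and Cxcr3 in 23.4% of its wells. At the coarser Leiden resolution of 0.5, the group called NK cell-like by its number of markers had 7 NK cell and 4 T cell markers. It held Cxcr6 in 52.5%, Cxcr3 in 25.7% and all 7 wells with Xcl1, so it took in wells of cluster 0. Cluster 3 here held Cxcr6 in 7.14%, Cxcr3 in 0% and Xcl1 in no well. At resolution 1.5 the NK cell-like cluster had the same shares. These genes thus stood apart from the NK cell-like wells at resolutions 1 and 1.5, and resolution 0.5 did not separate the 2 kinds of wells.

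Ccr7 lay in other clusters. It was counted in 10 of 29 (34.5%) and 25 of 60 (41.7%) wells of the B cell-like clusters, in 32 of 77 wells of cluster 5 (41.6%) and in 31 of 62 wells of cluster 6 (50%). In cluster 0 it was in 0 of 65 wells, which allows up to 4.62%, and in the NK cell-like cluster in 0 of 28, which allows up to 10.7%. At 1500 counts the shares were 24.0%, 28.9%, 33.8% and 33.3% in clusters 1, 2, 5 and 6. Ccr7 and Ccl5 were together in 1 well, 1.01% of the 99 with Ccr7 and 1.41% of the 71 with Ccl5. Ccr7 and Cxcr6 were together in 2 wells, 2.02% of those with Ccr7 and 3.57% of those with Cxcr6.

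Ccl3 and Ccl4, the leading chemokines of the HPC line, were rare in PBMC. Ccl3 had 15 counts in 6 wells, 3 of them in cluster 3, and Ccl4 had 7 counts in 3 wells, all of which also held Ccl3. Tnf had 14 counts in 13 wells spread over 6 clusters, with no well of the NK cell-like cluster among them.

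**Figure D5:**
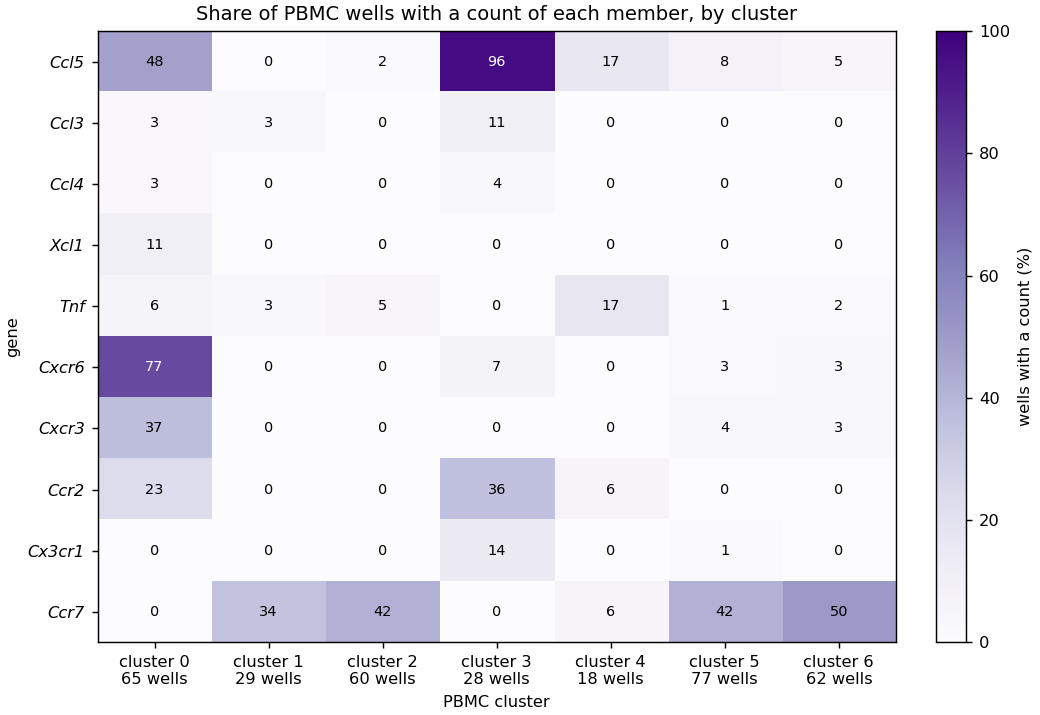
Share of PBMC wells in percent with a count of each of the 10 genes (rows) in the 7 clusters (columns, with their number of wells), where darker squares are higher. Ccl5 filled cluster 3, Cxcr6 and Cxcr3 lay mainly in cluster 0, and Ccr7 lay in clusters 1, 2, 5 and 6.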

How the data were processed

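The authors deposited expected counts per gene and well in 2 tables, 1836 wells of the cell lines and 346 of PBMC, of 3264 labelled wells. STAR, bcl2fastq and the mm10 build are named per the submitters' processing notes, and the sources used here do not give versions, the counter, its strand setting or the annotation. Of the deposited non-zero counts 5.31% (cell lines) and 5.15% (PBMC) were not whole, and they were summed as deposited. The gene Rn45s, a ribosomal RNA precursor, held 11.6% and 23.7% of all counts, and totals include it. The files hold no column without a labelled sample and no wells with identical values.

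Counts were summed over the wells of a line on a plate with at least 5 such wells, scaled to CPM, and compared as log2(CPM + 1). A gene entered with at least 10 CPM in 1 of the groups, and the size rule was a 2-fold difference with the agreement between plates given in the report. No model was fitted, since every group is 1 sample. Intervals are exact Poisson or exact binomial (Clopper-Pearson) at 95%, and a count of 0 was read as at most 3 counts. Whether the barcodes were collapsed in counting is not stated in the labels, so intervals and limits cover counting error only.

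Profiles of the 3 lines were built from 4133 genes with at least 50 CPM, leaving out the 10 genes and the listed genes, and each well was given to the nearest by Spearman correlation. In 13 wells the nearest profile led by less than 0.05. PBMC wells with at least 300 genes were clustered on 2000 variable genes of 9637, with 30 principal components, 15 neighbours and Leiden resolution 1. No doublet caller was run. Wells were thinned to 20000 counts in the lines and 1500 in PBMC for shares. The size rule was tried on simulated wells of the leukemia profile without plate effects. Changes there were larger than 2-fold and only in genes of at least 50 CPM, so the rule was not tried at its own limits. The intervals were tried on simulated Poisson and binomial counts.

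The 10 genes and the lists were chosen with earlier results of these data known. Other genes are named if a list gene met the size rule or reached 50 CPM, or if they were among the 3 genes most correlated with one of the 10 that reached 10 CPM in a target line, and of these the text gives a selection. Alternatives were other pseudocounts (0.5 and 5 CPM), scaling without Rn45s or by median of ratios, mean CPM of wells and no filter. Others were a gap of at least 0.05 between profiles, wells that match their label, random plates in place of target plates, and Leiden resolutions 0.5 and 1.5. Leaving out 1 plate at a time covered target plates for the lines, random plates for time-lapse minus random and FACS plates for target minus FACS. For PBMC shares it covered the PBMC plates, and no time-lapse plate of the lines was left out. Clusters were made with scanpy 1.11.5 and igraph 0.11.9, intervals with scipy 1.17.1, sums with pandas 2.3.3 and numpy 2.4.6, and plots with matplotlib 3.10.9, in Python 3.11.15.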

Additional observations from a re-analysis of the deposited data

Results flagged for a closer look

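In 26 groups of plates the highest and lowest plates were set against the others, and 3 stood further apart than Dixon's 95% limit, which chance passes in about 1 in 20 groups. Plates are technical units here and not samples. Ccl3 in random HPC wells had 1220.3 CPM on plate 1, against 683.6, 730.1 and 679.5 CPM on the others. Ccl5 in random HPC wells had 215.8 CPM on plate 4, all of it from 1 well, against 0 on the others. Ccr2 in random leukemia wells had 51.4 CPM on plate 2, against 10.3, 8.39 and 2.72 CPM on the others.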

How the results depend on the processing

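No paired analysis was possible because every group is 1 sample and its replicate numbers only name wells, while the comparisons of lines already take the difference within each target plate. In the comparisons of lines and in target minus FACS, leaving out a plate cannot change the sign of a difference that met the rule. No difference of the 10 genes that met the size rule changed sign under any alternative run. Of those that did not meet it, Ccl5 in time-lapse minus random HPC wells (-0.68) was 1.26 without random plate 4 and 0.86 without the well of highest count, Ccr2 in target minus FACS HPC wells (0.04) was -0.24 without FACS plate 1 and -0.04 by the mean of CPM over wells, Cxcr6 in T wells (-0.23) was 0.20 without FACS plate 2 and 0.0050 with random plates, and Cx3cr1 in leukemia wells (1.44) was -0.04 without FACS plate 1. Over the 10 genes, 400 alternative values moved by less than the spread between plates and 10 by more. Leaving out 1 plate cannot move a mean by more than that spread, so those runs were counted as less in advance. The numbers 400 and 10 therefore do not show that the values were stable. Plates left out were only random plates in time-lapse minus random and only FACS plates in target minus FACS. Leaving out 1 plate at a time gave 3 to 5 genes of the set past the size rule for HPC minus T (3 with all plates), 0 to 1 for time-lapse minus random leukemia wells (0), 1 to 2 for target minus FACS HPC wells (2) and 1 to 2 for target minus FACS leukemia wells (0). With no filter on low values the count was 6 for T minus leukemia, against 3, and 1 for target minus FACS leukemia wells. Without the well of highest count, chosen after the data were seen, the last was also 1. For T minus leukemia, the genes added without the filter were Tnf and Cxcr3, with no count in leukemia wells, and Ccr7, with none in T wells. None of them reached 10 CPM in either line. Over all genes 13688 were then tested, against 8263 with the filter, and 1.44 times as many met the rule. The counts 6 and 3 thus come from different numbers of tested genes and show no gain. At a pseudocount of 5 CPM, Cxcr6 missed the rule for T minus leukemia, at -0.88.

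Over all genes, the number past the size rule depended on the settings in 4 comparisons, given here as a ratio to the number in the report. For time-lapse minus random leukemia wells it was 0.551 at a pseudocount of 5 CPM, 1.61 with no filter and 1.13 to 1.55 without 1 plate. For target minus FACS HPC wells it was 0.564, 1.65 and 1.37 to 2.97 in the same order, and 0.552 with random plates in place of target plates. In T wells it was 0.497, 2.35 and 2.16 to 3.8, and in leukemia wells 0.369, 2.76 and 2.30 to 3.30. Among called genes, the share that was higher moved from 37.6% to 50.1% without Rn45s and 51.95% by median of ratios (target minus FACS, HPC), from 62.4% to 74.03% and 78.1% (T), from 50% to 68.1% and 65.3% (leukemia), and from 46.9% to 58.7% and 59.7% (time-lapse minus random, leukemia). Median of ratios moved the median of all genes from -0.12 to -0.01 in HPC minus leukemia and from -0.14 to -0.02 in target minus FACS T wells, and the genes of the set that met the rule were the same under both scalings. The cause of these changes was not tested. Shares of wells moved past their interval 81 times on thinning. At Leiden resolution 0.5 the NK cell-like cluster was larger, with Ccl5 in 60.4% and Cxcr6 in 52.5% of its wells. At resolution 1.5 these shares were 96.4% and 7.14%, the same as at resolution 1. PBMC depth limits what a missing count shows.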
